A study of Mus musculus with 9 samples.

Results

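Nuclear-encoded genes of oxidative phosphorylation were followed in mouse embryonic stem (ES) cells. They were taken from the count table by symbol: every gene that starts with Nduf, Uqcr or Atp5, or with Cox4 to Cox8, except Ndufa4l2 and symbols that hold -ps. Of 87 matching symbols, 85 had at least 10 counts over all libraries and form the set, out of 24421 genes in the table. Ndufs5, at 0 counts, and Cox8b, at 5 counts, were left out. The 85 genes are 7 core and 28 other subunits of complex I, 7 Ndufaf assembly factors, 8 genes of complex III, 18 of complex IV, 15 of complex V (the ATP synthase), and Atp5s and Atp5sl, which have an Atp5 symbol but are not subunits of it. Ndufa4 and Cox7a2l were counted with complex IV, where they are now placed.

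RNA was sequenced from D3 cells, a mouse ES cell line, kept without feeders on gelatin in medium with serum and the LIF product ESGRO. The groups, of 3 libraries each, were VT (cells with a stably expressed pCDH control vector), LAMP2A (cells overexpressing LAMP2A) and LAMP2A+DM-αKG (LAMP2A cells given DM-αKG at 4 mM over 72 h). LAMP2A, encoded by Lamp2, is the form of the lysosomal protein LAMP2 that acts as the receptor of chaperone-mediated autophagy, and DM-αKG is dimethyl α-ketoglutarate, a cell-permeable ester of a TCA cycle metabolite. No group of VT cells with DM-αKG was analysed here. Separate cultures and the number of clones are not mentioned in the labels, so the 3 libraries of a group may be technical replicates. Each p-value of a fold change rests on the spread between libraries of a group, pooled over all 3 groups.

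In oxidative phosphorylation, complexes I and II pass electrons from NADH and succinate to ubiquinone, complex III passes them on to cytochrome c, and complex IV passes them to oxygen. Complexes I, III and IV pump protons out of the mitochondrial matrix, and the ATP synthase makes ATP as the protons flow back. A few core subunits are encoded in mitochondrial DNA and the rest in the nucleus. ES cells rely strongly on glycolysis, and their respiration is known to change as they leave pluripotency.

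The libraries held 23636074 to 32809875 counted reads, and 14513 genes passed the filter on low counts. Lamp2, which is counted over all its splice forms, stood at 57.5, 56.9 and 60.01 CPM (counts scaled to a common library size) in VT, at 407, 403 and 403 in LAMP2A and at 99.3, 95.3 and 96.9 in LAMP2A+DM-αKG. With DM-αKG it was thus 4.16-fold below untreated LAMP2A cells and 1.67-fold above VT (edgeR's quasi-likelihood test with Benjamini-Hochberg adjustment, adjusted p = 3.51e-35 and 4.31e-19). The treated group differed from the untreated one in Lamp2 level as well as in the compound, and the parts of compound and Lamp2 level in any result cannot be told apart. All 8 ES cell markers tested were lower in LAMP2A than in VT, where their summed level was 6134 to 6587 CPM against 1566 to 1577 CPM, and all were higher again with DM-αKG, at 5315 to 5374 CPM. Of 12 fibroblast and feeder cell markers, 9 were tested. In LAMP2A 8 of them were higher than in VT and Thy1 was lower, and their sum was 136 to 139 CPM against 8.72 to 9.82 CPM in VT and 7.08 to 11.1 CPM with DM-αKG. Lum and Fap were at 0 in VT and Fap was at 0 in LAMP2A. Of 10 smooth and striated muscle markers all 9 tested were higher in LAMP2A, with sums of 2361 to 2412 CPM against 26.7 to 28.9 CPM in VT and 23.9 to 26.5 CPM with DM-αKG, and Actc1 was at 0 in VT. For comparison, 42.1% of all genes tested were lower and 43.0% higher in LAMP2A than in VT. With DM-αKG against LAMP2A, 41.1% of all genes were higher. The markers moved with the groups beside every result below, and their part in it was not tested. In bulk RNA, fewer cells of a type and less RNA per cell cannot be told apart.

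The promoters of the 85 genes were searched for the motifs of factors known to act on respiratory genes. RefSeq (GRCm38.p6) gave a promoter, 250 bases before to 50 after the start, for 71 of the 85 genes, and both strands were searched. Genes not in that table included Ndufs1, Ndufa2, Ndufb9, Ndufaf6, Uqcrb, Uqcrc2, Uqcrq, Cox4i1, Cox4i2, Cox6a2, Cox6c, Cox8c and Atp5a1. The motif of NRF1 (nuclear respiratory factor), GCGCANGCG, was in 25.4% of the 71 promoters found. It was in 6.47% of all 27025 promoters in the table and in 13.2% of those of tested genes. The ETS motif that GABP binds, CCGGAAG, was in 19.7%, against 9.12% of all and 17.1% of tested genes' promoters. The YY1 motif AANATGGCG was in 12.7%, against 2.51% and 4.97%. The oestrogen-related receptor (ERR) motif TCAAGGTCA was in 1.41%, which is Atp5g3 alone, against 0.407% and 0.229%. The cAMP response element TGACGTCA was in 5.63%, against 1.88% and 3.26%. In all, 38 genes had at least 1 motif, and no match of one motif overlapped a match of another. The 120 bases before the start are shown for 4 genes that stand for different motifs and responses, on the gene's strand, with the matches in capitals. Ndufaf4 fell by 0.94 on the log2 scale in LAMP2A, Ndufa11 also has an NRF1 match and did not pass, Ndufaf1 ended above VT, and Atp5g3 is the most counted gene of the ATP synthase c subunit.
Ndufaf4 (chr4:24897963-24898082, strand +): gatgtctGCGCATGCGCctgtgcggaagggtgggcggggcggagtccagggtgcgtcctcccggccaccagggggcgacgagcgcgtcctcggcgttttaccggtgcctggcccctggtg
Ndufa11 (chr17:56717642-56717761, strand +): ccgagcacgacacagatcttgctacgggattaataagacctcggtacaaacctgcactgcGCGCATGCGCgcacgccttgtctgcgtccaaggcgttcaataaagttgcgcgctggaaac
Ndufaf1 (chr2:119662835-119662954, strand -): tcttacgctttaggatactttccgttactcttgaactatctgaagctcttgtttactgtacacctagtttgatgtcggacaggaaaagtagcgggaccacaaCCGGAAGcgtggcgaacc
Atp5g3 (chr2:73911327-73911446, strand -): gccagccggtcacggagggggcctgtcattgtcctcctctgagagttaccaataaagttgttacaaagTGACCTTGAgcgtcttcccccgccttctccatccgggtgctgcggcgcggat

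The genes of every respiratory complex took a smaller share of the counted mRNA in LAMP2A than in VT, and with DM-αKG the share was close to that of VT. The 85 genes together took 12729, 13434 and 12483 CPM in VT, 9061, 9112 and 9127 CPM in LAMP2A, and 12645, 12761 and 12657 CPM in LAMP2A+DM-αKG. The sum in LAMP2A was 70.6% and the sum with DM-αKG 98.5% of the VT mean. The LAMP2A libraries did not overlap with either of the other groups, while the DM-αKG libraries lay inside the range of VT. By complex, the summed level in LAMP2A was 68.4% of VT for the complex I core, 74.4% for the other complex I subunits, 61.4% for the Ndufaf factors, 63.3% for complex III, 72.5% for complex IV and 70.7% for complex V. With DM-αKG the first 5 of these sums were 95.3%, 96.8%, 98.9%, 99.3% and 96.6% of VT. For complex V the DM-αKG mean was 6071 CPM and the VT mean 6069 CPM. Sums are dominated by the most counted genes and are given as a description, without a test.

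**Figure D1:**
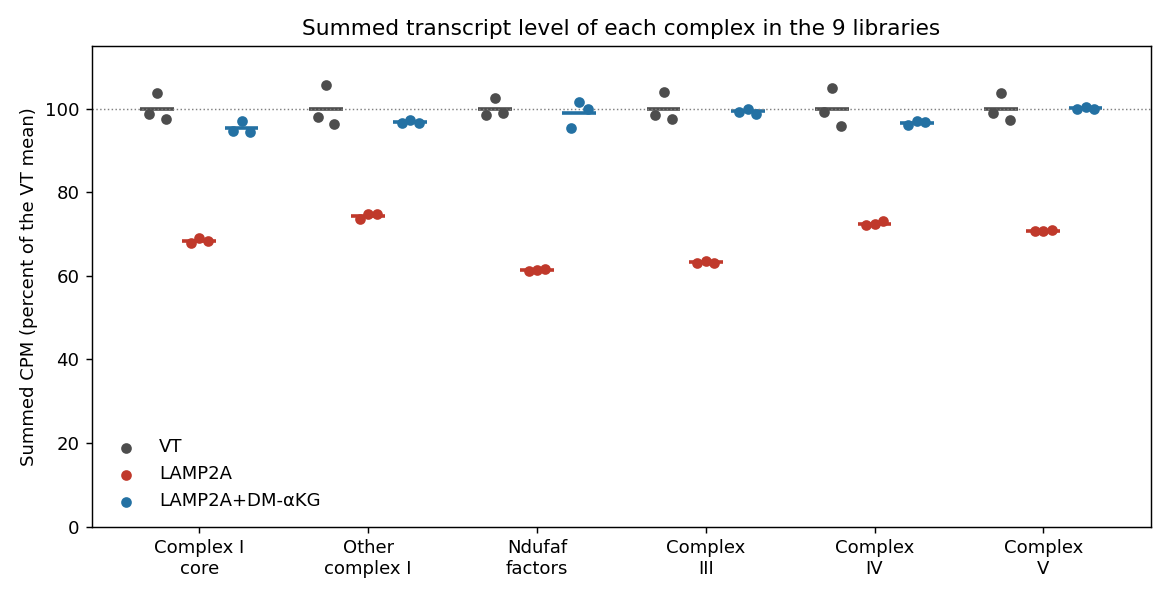
Summed CPM of the genes of each complex in percent of the VT mean of that complex (vertical axis, from 0), for the 3 libraries of each group (points) and their mean (lines). The LAMP2A means of the 6 classes lie between 61.4% and 74.4%, and those with DM-αKG at 95.3% or above.

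Gene by gene, 82 of the 85 could be tested: the filter on low counts removed Cox6a2, Cox7b2 and Cox8c. In LAMP2A against VT, 75 were lower at an adjusted p under 0.05 (91.5%, where 42.1% of all 14513 genes tested were lower) and 3 were higher (3.66%, against 43.0% of all genes). At a change of at least 1.5-fold, 37 were lower, where 19.2% of all genes were, and 0 were higher, where 27.6% were. The median log2 fold change of the 82 genes was -0.55, with quartiles of -0.69 and -0.31, while the median of all genes tested was 0.01. In LAMP2A+DM-αKG against LAMP2A, 75 genes were higher (91.5%, against 41.1% of all genes) and 3 were lower (against 42.1%). At 1.5-fold, 30 were higher, against 16.4% of all genes, and 0 were lower, against 25.4%. The median was 0.49, with 0.00 for all genes. Both comparisons share the LAMP2A libraries, so their opposite signs are not independent of each other.

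The 3 genes higher in LAMP2A were Cox4i1, Cox4i2 and Atp5s. The 4 that did not pass were Ndufa2, Ndufa11, Ndufa13 and Ndufb7, all accessory subunits of complex I. Exons of Ndufa2, Ndufa11, Ndufa13 and Cox4i1 overlap those of another protein-coding gene in the annotation, so their counts are less certain. The same holds for 20 of the 85 genes in all, among them genes that fell, such as Atp5a1, Atp5f1, Ndufb6 and Uqcrc2. Ndufb7, Cox4i2 and Atp5s have no such overlap. In every LAMP2A library 74 of the 82 genes lay below every VT library, 1 lay above, and 7 overlapped. Of all genes tested, 41.9% lay wholly below and 43.1% wholly above. In VT, replicate 2 stood slightly apart: it was the highest of the 3 VT libraries for 67 of the 82 genes. Without it 73 genes were lower in LAMP2A, 32 of them by at least 1.5-fold.

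**Figure D2:**
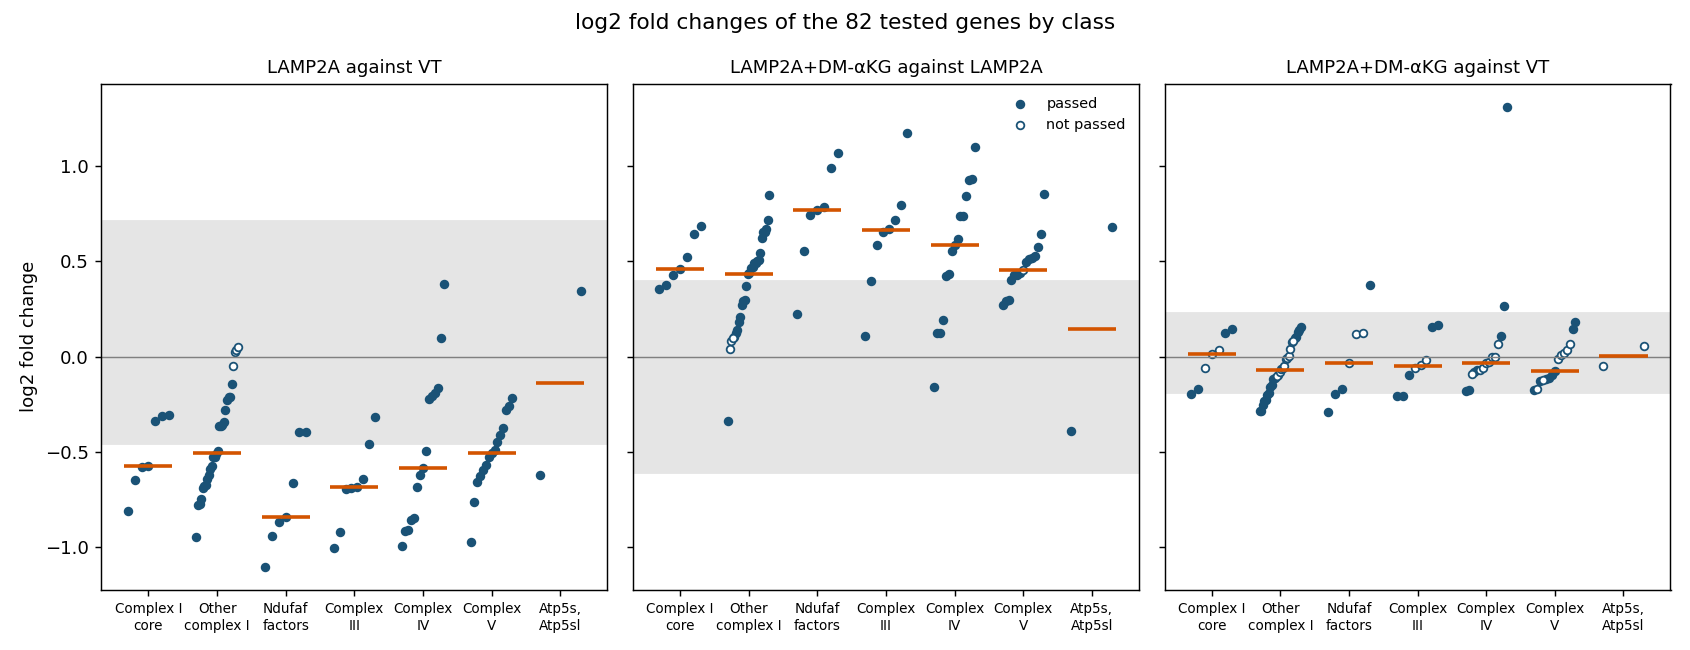
log2 fold change of each tested gene (points, filled where the adjusted p was under 0.05) in the 3 comparisons, by class along the horizontal axis, with the class median (orange line) and the range between the quartiles of all genes tested (grey band). In LAMP2A against VT every class of complex subunits and assembly factors has its median between -0.84 and -0.50, and against VT the genes of LAMP2A+DM-αKG gather around 0.

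The core of complex I, the subunits that carry electrons from NADH to ubiquinone, was lower in LAMP2A for 7 of 7 nuclear genes, with a median log2 fold change of -0.57. Beside this and the class counts below, 42.1% of all genes tested were lower in LAMP2A, 19.2% by at least 1.5-fold, and 43.0% were higher. With DM-αKG against LAMP2A, 41.1% of all genes were higher, 16.4% by at least 1.5-fold. Ndufs1, an iron-sulphur subunit, was counted at 229.9, 249 and 240.0 CPM in VT, at 134, 139 and 136 in LAMP2A and at 207, 221 and 210.2 with DM-αKG. The LAMP2A libraries were the lowest and the DM-αKG libraries lay below VT without overlap. The log2 fold change was -0.81 ± 0.033 (SE, n = 3 against 3; adjusted p = 3.64e-22 by edgeR) in LAMP2A, and 0.64 ± 0.033 with DM-αKG against LAMP2A. Ndufs8, another iron-sulphur subunit, stood at 56.5 ± 2.34 CPM (SD, n = 3) in VT, 36.0 ± 1.51 in LAMP2A and 57.9 ± 0.543 with DM-αKG, where its range overlapped that of VT. Ndufv1, which binds NADH and its flavin cofactor, was at 195 ± 13.7, 131 ± 2.96 and 170.3 ± 3.36 CPM and stayed below VT with DM-αKG (log2 fold change -0.20, adjusted p = 2.92e-05 by edgeR). The smallest falls were those of Ndufs7 (-0.31), which lines the ubiquinone site, and Ndufs3 (-0.31). All 7 were higher again with DM-αKG, with the highest value, 0.68 on the log2 scale, in Ndufs8.

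Of the 28 other subunits of complex I, which surround the core, 24 were lower in LAMP2A and 4 did not pass, with a median of -0.50. Their values ran from -0.95 (Ndufb4) to 0.05 (Ndufa11). The 13 Ndufa symbols of complex I had a median of -0.23, and 10 of them were lower. The 12 Ndufb and Ndufc symbols, most of them subunits of the membrane arm, had a median of -0.57, and 11 were lower. The difference between these subsets was not tested.

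Ndufb4 had the lowest value of the class: it was counted at 11.4, 11.9 and 12.3 CPM in VT, 6.32, 6.37 and 5.71 in LAMP2A and 11.1, 10.8 and 11.3 with DM-αKG. Its log2 fold change was -0.95 ± 0.076 and then 0.85 ± 0.077. Ndufb6 stood at 82.8 ± 2.71 CPM in VT, 48.3 ± 1.54 in LAMP2A and 68.0 ± 0.741 with DM-αKG. Its DM-αKG libraries lay between those of the other groups (-0.28 against VT, adjusted p = 3.87e-08 by edgeR). Ndufa8 fell by 0.77 and Ndufs6 by 0.75 on the log2 scale, although over 50% of the Ndufs6 transcript is also found in another locus, so that its counts are less certain. Ndufab1, the mitochondrial acyl carrier protein, was at 11.3, 12.2 and 11.0 CPM in VT and 10.4, 10.4 and 10.3 in LAMP2A. Its call at -0.15 (adjusted p = 0.0475 by edgeR) was lost in 13 of 18 other fits, with adjusted p from 0.0222 to 0.221.

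Ndufa11, a membrane subunit whose promoter is shown above, was an exception in the class. It was counted at 83.2, 93.6 and 82.2 CPM in VT and at 87.5, 89.98 and 91.0 in LAMP2A, where the groups overlapped. With DM-αKG it was at 72.7, 71.1 and 68.7 CPM, below all other libraries, and the log2 fold change was -0.34 ± 0.04 against LAMP2A (adjusted p = 2.15e-09 by edgeR) and -0.29 against VT. Its exons overlap those of Vmac in the annotation, which was at 18.7 CPM with DM-αKG and 21.6 CPM in LAMP2A on average. Without VT replicate 2, Ndufa11 passed as higher in LAMP2A, and it also passed with genes filtered at a mean of 5 CPM. Ndufa13, needed for complex I assembly, was at 79.6 ± 4.03 CPM in VT, 77.1 ± 1.19 in LAMP2A and 88.9 ± 1.69 with DM-αKG, which was above both (adjusted p = 4.13e-06 and 0.000417 by edgeR). Ndufa1, an X-linked subunit, stayed below VT (-0.23): it was at 37.9 ± 3.31, 29.6 ± 0.639 and 32.2 ± 1.27 CPM. Its rise with DM-αKG (0.12, adjusted p = 0.032 by edgeR) was lost in 6 of 18 other fits, with adjusted p up to 0.195.

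The 7 Ndufaf genes code for assembly factors that build complex I and are not part of the finished enzyme. All 7 were lower in LAMP2A, 5 of them by at least 1.5-fold, with a median log2 fold change of -0.84, and all 7 were higher with DM-αKG than without (median 0.77, 5 by at least 1.5-fold). Ndufaf5, a hydroxylase that modifies the core subunit Ndufs7, had the lowest value of all 82 genes. It was counted at 17.4, 17.3 and 18.4 CPM in VT, 8.75, 7.49 and 8.55 in LAMP2A and 17.0, 17.7 and 17.3 with DM-αKG. VT and DM-αKG overlapped, and all LAMP2A libraries lay below both. The log2 fold change was -1.10 ± 0.067 in LAMP2A and 1.07 ± 0.067 with DM-αKG (adjusted p = 6.19e-17 and 1.78e-16 by edgeR).

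Ndufaf3 and Ndufaf4, partners in assembly of the ubiquinone-binding module, fell together. Ndufaf3 was at 15.9 ± 0.726 CPM in VT, 8.72 ± 0.276 in LAMP2A and 17.3 ± 0.604 with DM-αKG, but its exons overlap those of Impdh2, a more strongly counted gene. Ndufaf4, whose promoter holds the NRF1 match shown above, was at 41.5, 43.1 and 40.1 CPM in VT, 21.7, 22.5 and 20.8 in LAMP2A and 34.4, 38.0 and 36.4 with DM-αKG. Its LAMP2A libraries were the lowest, and its DM-αKG libraries lay below VT without overlap (-0.20, adjusted p = 0.000487 by edgeR). Ndufaf2, a relative of the subunit Ndufa12, fell by 0.84 and ended at -0.29 against VT. Ndufaf6 was at 17.8 ± 1.31, 11.3 ± 0.245 and 19.4 ± 1.41 CPM.

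Ndufaf1, a factor of membrane arm assembly whose promoter with an ETS match is shown above, ended higher than it began. It stood at 28.9 to 30.1 CPM in VT, 22.4, 22.4 and 22.9 in LAMP2A and 37.0, 39.9 and 38.3 with DM-αKG, and the 3 groups did not overlap. The log2 fold change was -0.40 ± 0.049 in LAMP2A and 0.37 ± 0.046 for DM-αKG against VT (adjusted p = 4.32e-09 and 1.72e-08 by edgeR). Ndufaf7, a methyltransferase that acts in complex I assembly, changed least of the class (-0.40 in LAMP2A, 0.22 with DM-αKG).

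All 8 genes of complex III were lower in LAMP2A, 6 by at least 1.5-fold, with a median of -0.69, and all 8 were higher with DM-αKG than without (median 0.66). Uqcrq, a small subunit, had the largest rise with DM-αKG of the 82 genes. It was counted at 118, 126 and 109.8 CPM in VT, 59.1, 58.9 and 58.1 in LAMP2A and 134, 133 and 129.7 with DM-αKG. The 3 groups did not overlap, and the treated libraries were the highest. Its log2 fold change was -1.01 ± 0.039 in LAMP2A, 1.17 ± 0.039 with DM-αKG against LAMP2A and 0.17 ± 0.037 against VT (adjusted p = 1.18e-22, 1.02e-24 and 0.000226 by edgeR).

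Uqcr10 stood at 128 ± 8.10 CPM in VT, 67.7 ± 1.98 in LAMP2A and 111 ± 2.86 with DM-αKG, so that it remained below VT. The 2 core proteins differed at the end: Uqcrc1 was at 319 ± 8.65, 204 ± 5.24 and 354 ± 2.34 CPM and ended above VT (0.15), and Uqcrc2 was at 222 ± 6.62, 138 ± 1.46 and 207 ± 3.32 CPM and ended below (-0.10). Uqcrfs1, the Rieske iron-sulphur protein, was at 144 ± 5.07, 89.5 ± 1.26 and 142 ± 0.976 CPM. Uqcrh, the hinge protein, moved least: it fell by 0.31 on the log2 scale in LAMP2A and was 0.11 with DM-αKG against LAMP2A, a call lost in 4 of 18 other fits with adjusted p up to 0.188.

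In complex IV, cytochrome c oxidase, 13 of 15 tested genes were lower in LAMP2A, 8 by at least 1.5-fold, and 2 were higher. The median was -0.59. Its values ran from -0.995 (Cox6b2) to 0.38 (Cox4i2). Cox5a was counted at 325, 356 and 343 CPM in VT, 186, 180.4 and 178 in LAMP2A and 297, 308 and 302 with DM-αKG, and Cox6c at 141 ± 5.66, 74.5 ± 3.24 and 124 ± 2.702 CPM. In both, the treated libraries lay between the other groups without overlap, and the log2 fold changes were -0.91 and -0.92 in LAMP2A and -0.17 and -0.18 with DM-αKG against VT. Cox8a stood at 245 ± 18.3 CPM in VT, 136 ± 3.50 in LAMP2A and 244 ± 2.30 with DM-αKG. Cox7c was at 114 ± 11.8, 63.0 ± 1.82 and 119.6 ± 1.81 CPM, with over 50% of its transcript also found at another locus. Cox5b (-0.19), Cox6b1 (-0.21) and Cox6a1 (-0.22) fell less.

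Several subunits of complex IV and the c subunit of the ATP synthase are coded by more than 1 gene, and the ratios between the copies were compared. Cox4i1, the common form of subunit 4, was at 333, 355 and 319 CPM in VT, 354, 358 and 365 in LAMP2A and 317, 328 and 319.6 with DM-αKG. The rise in LAMP2A was small (0.10 ± 0.032, adjusted p = 0.0069 by edgeR), VT and LAMP2A overlapped, and without VT replicate 3 it did not pass (adjusted p = 0.0742). Cox4i2, the form known from lung and from low oxygen, was scarce, at 1.77, 1.66 and 1.38 CPM in VT, 2.22, 2.24 and 1.72 in LAMP2A and 4.54, 3.39 and 4.02 with DM-αKG, on 125, 191 and 317 counts per group. The treated libraries were all higher than the rest, with a log2 fold change of 1.31 ± 0.15 against VT and 0.93 ± 0.14 against LAMP2A (adjusted p = 4.92e-09 and 1.77e-07 by edgeR). The call in LAMP2A against VT (0.38, adjusted p = 0.0415 by edgeR) was lost in 7 of 17 other fits, with adjusted p up to 0.18.

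Cox6b2, the testis form of subunit 6b, fell by 0.995 on the log2 scale in LAMP2A, and the common form Cox6b1 by 0.21. It was counted at 51.9, 56.1 and 51.6 CPM in VT, 27.1, 25.6 and 27.6 in LAMP2A and 58.8, 57.1 and 56.2 with DM-αKG. Cox6b1 was at 160.0, 168 and 147 CPM in VT, 139.6, 135 and 137 in LAMP2A and 150.1, 149 and 150.1 with DM-αKG. Cox6b2 thus stood at 33.6% of the Cox6b1 CPM in VT, 19.5% in LAMP2A and 38.3% with DM-αKG, a difference in log2 ratio of -0.79 and then 0.98. The libraries did not overlap, and the exact two-sided permutation p was 0.1, the smallest that 3 against 3 libraries allow (0.135 after Benjamini-Hochberg adjustment over 27 ratio tests). Cox7a2l, a paralogue of Cox7a2 that takes part in forming supercomplexes, was at 36.3% of the Cox7a2 CPM in VT, 48.8% in LAMP2A and 44.8% with DM-αKG, so that this ratio was highest in LAMP2A. Cox7a2l itself fell by 0.16 in LAMP2A and ended at 0.27 against VT, from 57.9 ± 4.62 to 69.8 ± 1.69 CPM. Cox7a1, the form of heart and muscle, and Cox7a2 fell by 0.68 and 0.59, and their log2 ratio in LAMP2A differed from VT by -0.09 (exact permutation p = 0.2).

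The tissue forms Cox6a2, Cox7b2 and Cox8c had few counts and were not tested here. Cox6a2, the muscle form of subunit 6a, had 6 counts in VT, 3 in LAMP2A and 11 with DM-αKG over the 3 libraries of a group, and Cox8c had 14, 7 and 8. Cox7b2 had 17, 9 and 27, and its groups did not overlap. In the authors' deposited table Cox7b2 was higher with DM-αKG than in LAMP2A (log2 fold change 1.80, adjusted p = 0.0212 by DESeq2), on these few counts. Cox6a2 and Cox8c did not pass there (adjusted p = 0.114 and 0.737 by DESeq2). In the authors' LAMP2A against VT, Cox7b2 did not pass (-1.16, adjusted p = 0.191 by DESeq2).

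**Figure D3:**
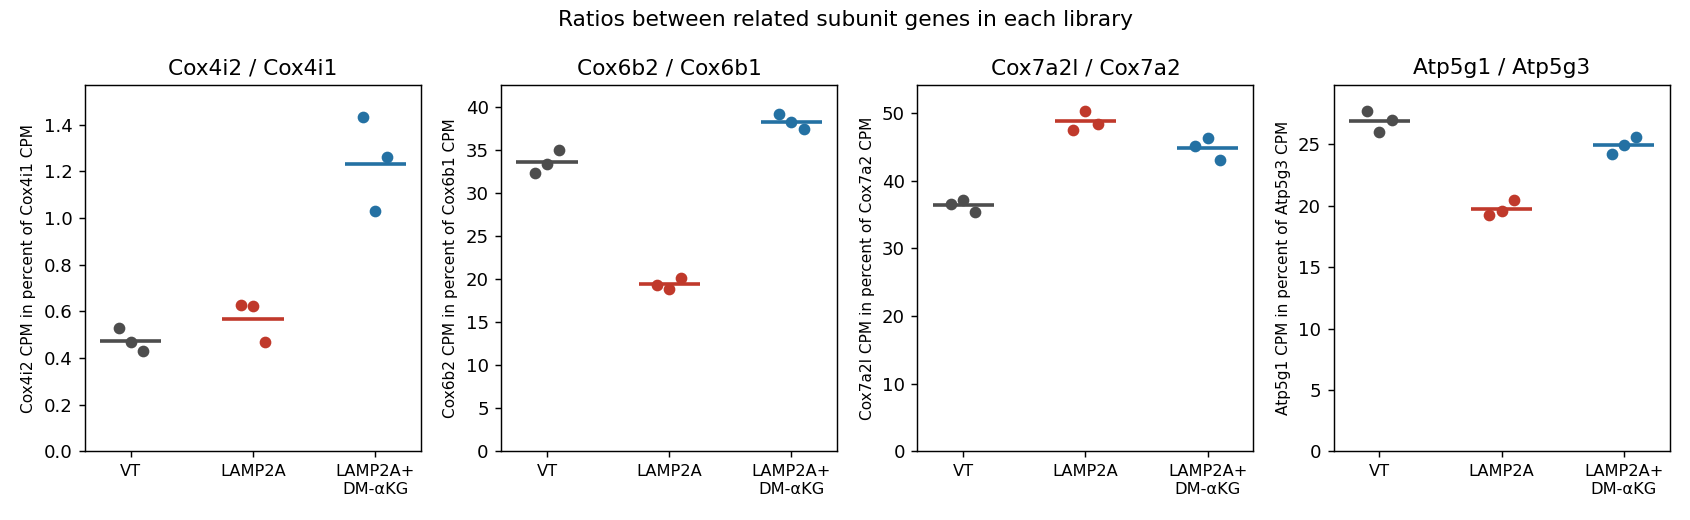
CPM of one gene in percent of the CPM of a related gene (vertical axes, from 0) in each library (points) with the geometric mean of the group (lines), for 4 pairs. Cox6b2 over Cox6b1 and Atp5g1 over Atp5g3 are lowest in LAMP2A, Cox7a2l over Cox7a2 is highest there, and Cox4i2 over Cox4i1 is highest with DM-αKG.

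In complex V, the ATP synthase, 15 of 15 genes were lower in LAMP2A, 5 by at least 1.5-fold, with a median of -0.50. With DM-αKG 14 were higher than in LAMP2A, and Atp5l did not pass. Atp5a1, the alpha subunit of the catalytic head, stood at 1389, 1436 and 1361 CPM in VT, 944, 935 and 945 in LAMP2A and 1381, 1422 and 1400.0 with DM-αKG. Its log2 fold change was -0.57 ± 0.029 and then 0.57 ± 0.029, and treated and VT libraries overlapped (0.01, adjusted p = 0.871 by edgeR). Of the other head and stalk subunits, Atp5f1 fell by 0.26 and Atp5d by 0.28, among the smallest falls of the class, and Atp5d ended above VT (0.15). Of the small membrane subunits, Atp5k fell by 0.76 and Atp5j2 by 0.66. Atp5k, Atp5g2, Atp5h, Atp5l and Atp5o each share over 50% of their transcript with another locus at 95% identity. Atp5l, which has 9 such loci, was counted at only 1.05 ± 0.351 CPM in VT, and its groups overlapped. In the authors' LAMP2A against VT, Atp5l did not pass (-0.61, adjusted p = 0.105 by DESeq2).

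The c subunit, which forms the rotating ring, is coded by Atp5g1, Atp5g2 and Atp5g3 with the same mature protein. Atp5g3, whose promoter holds the ERR match shown above, took 74.4 to 75.2% of their CPM in VT, 77.2 to 78.7% in LAMP2A and 74.9 to 75.8% with DM-αKG. Atp5g1 took 19.5 to 20.6% in VT, 15.1 to 15.8% in LAMP2A and 18.4 to 19.2% with DM-αKG. Atp5g1 was counted at 104, 104 and 98.8 CPM in VT, 51.2, 52.6 and 53.0 in LAMP2A and 93.7, 92.6 and 96.7 with DM-αKG, a log2 fold change of -0.97 ± 0.036 and then 0.85 ± 0.036. Atp5g3 fell by 0.53 and Atp5g2 by 0.22. The log2 ratio of Atp5g1 to Atp5g2 differed by -0.76 in LAMP2A (exact two-sided permutation p = 0.1, 0.135 after adjustment). These shares compare counts, not transcripts per length.

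Of the 2 genes with an Atp5 symbol outside the enzyme, Atp5s was one of the 3 genes that rose. It was at 6.00, 7.65 and 6.36 CPM in VT, 8.57, 8.07 and 8.88 in LAMP2A and 6.35, 6.74 and 6.35 with DM-αKG, and LAMP2A lay above both other groups (0.34 ± 0.086 against VT, adjusted p = 0.000489 by edgeR). Atp5sl, a factor of complex I assembly despite its symbol, fell by 0.62 and rose by 0.68 with DM-αKG. It ended within the spread of VT (0.06, adjusted p = 0.273 by edgeR).

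**Figure D4:**
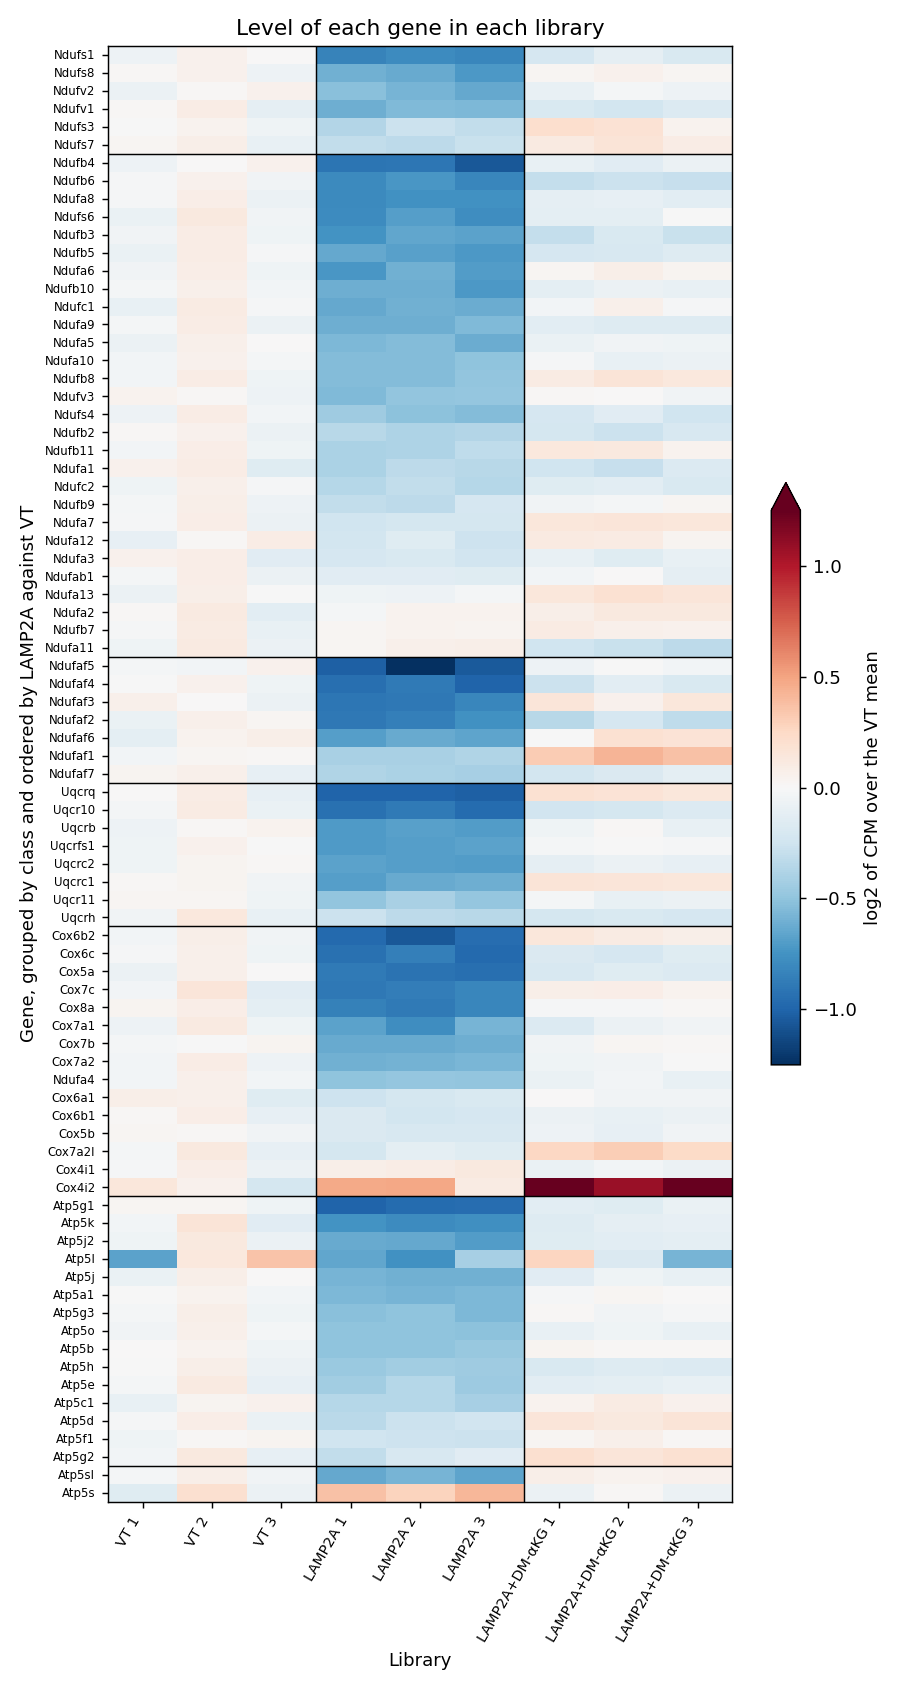
log2 of each gene's CPM over its VT mean (colour) in each of the 9 libraries (columns) for 81 of the 82 tested genes (rows), grouped by class from complex I core at the top to Atp5sl and Atp5s at the bottom. The LAMP2A columns are blue except for Ndufa13, Ndufa2, Ndufb7, Ndufa11, Cox4i1, Cox4i2 and Atp5s, Cox4i2 is darkest red with DM-αKG, and Atp5l scatters within each group.

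Against VT, most fold changes of LAMP2A cells with DM-αKG were small. There 15 genes were higher (18.3%, where 29.3% of all genes tested were) and 30 were lower (36.6%, where 29.4% were), and 37 did not pass. At 1.5-fold, Cox4i2 was higher and 0 were lower, where 8.58% and 6.3% of all genes were. The median log2 fold change was -0.055, and 0.00 over all genes. Of the 82 genes, 55 had a mean within 10% of VT and 80 within 20%, against 6 and 20 of the same genes in untreated LAMP2A cells. The shares of all genes within these limits were not counted. With DM-αKG against VT, the quartiles of the log2 fold change were -0.13 and 0.06 for the 82 genes. For all genes tested they were -0.19 and 0.23, so that most genes lay near VT. Apart from Cox4i2, values of the 82 genes ran from -0.29 (Ndufaf2) to 0.37 (Ndufaf1). Between these groups 42 genes overlapped, 28 lay below and 12 above, where 30.3% of all genes tested lay below and 30.9% above. The split moved with the VT libraries: without VT replicate 2 it was 19 higher and 21 lower.

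The genes lower than VT after treatment included subunits of every complex. Besides those above, Ndufb3 (-0.26) and Atp5h (-0.18) were lower. Those higher included Ndufs3 (0.15), Ndufa7 (0.14), Ndufb8 (0.13) and Atp5g2 (0.18). The Ndufs3 call was lost without LAMP2A+DM-αKG replicate 1 (adjusted p = 0.0584 by edgeR) and the Atp5g2 call without VT replicate 3 (adjusted p = 0.0565), and over 50% of the Ndufs3 transcript is also found at another locus. Cox6b1, Ndufa4 and Ndufa3 passed as lower by a narrow margin (adjusted p = 0.05, 0.0494 and 0.0416 by edgeR), and each lost its call in 12 or more of 18 other fits.

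Fold changes were set beside the motifs. In LAMP2A the 18 tested genes with the NRF1 motif had a median log2 fold change of -0.63 (range -1.10 to 0.05), and the 52 without had -0.50. For the ETS motif the medians were -0.43 with it (14 genes) and -0.57 without, and for the YY1 motif -0.59 (9 genes) and -0.53. With at least 1 of the 5 motifs the median was -0.55 over 38 genes, against -0.52 over 32 genes without. No test was made of these differences. Ndufa11 is the gene at 0.05 among those with the NRF1 motif, and Ndufaf5, at -1.10, is the lowest.

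Factors that act on respiratory genes were followed too. Of 12 regulators listed, 10 were tested: in LAMP2A 7 were lower (where 42.1% of all genes were), 2 were higher and Gabpb1 did not pass. With DM-αKG 6 were higher than in LAMP2A (where 41.1% of all genes were), 1 was lower and 3 did not pass. Esrrb, an orphan nuclear receptor of the ERR family that also belongs to the ES cell network, was at 1535, 1458 and 1449 CPM in VT, 248, 250.4 and 257 in LAMP2A and 1178, 1163 and 1179 with DM-αKG. Its log2 fold change was -2.56 ± 0.031 and then 2.22 ± 0.031, and it stayed below VT (-0.34). Ppargc1b, a coactivator of respiratory genes, was at 7.53, 6.51 and 6.92 CPM in VT, 1.31, 1.49 and 1.38 in LAMP2A and 6.86, 7.08 and 7.78 with DM-αKG (-2.32 ± 0.12 and 2.38 ± 0.12). Treated and VT libraries overlapped in this gene. Its relative Ppargc1a had 0 counts in VT and LAMP2A.

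Gabpa, the DNA-binding subunit of GABP, was counted at 268, 276 and 289.9 CPM in VT, 152, 147 and 149.9 in LAMP2A and 268, 277 and 269 with DM-αKG. It lies beside Atp5j and their annotated exons overlap; Atp5j itself fell by 0.59. Other listed factors whose motifs were searched had smaller values in LAMP2A against VT. On the log2 scale Nrf1 was -0.15, Esrra -0.28 and Yy1 0.08, each past the threshold (adjusted p = 0.000591, 8.24e-06 and 0.0219 by edgeR). No factor for the cAMP response element was in the list. Nrf1 and Yy1 did not pass with DM-αKG against LAMP2A. Esrrg was higher in LAMP2A, but at under 1 CPM in every library.

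**Figure D5:**
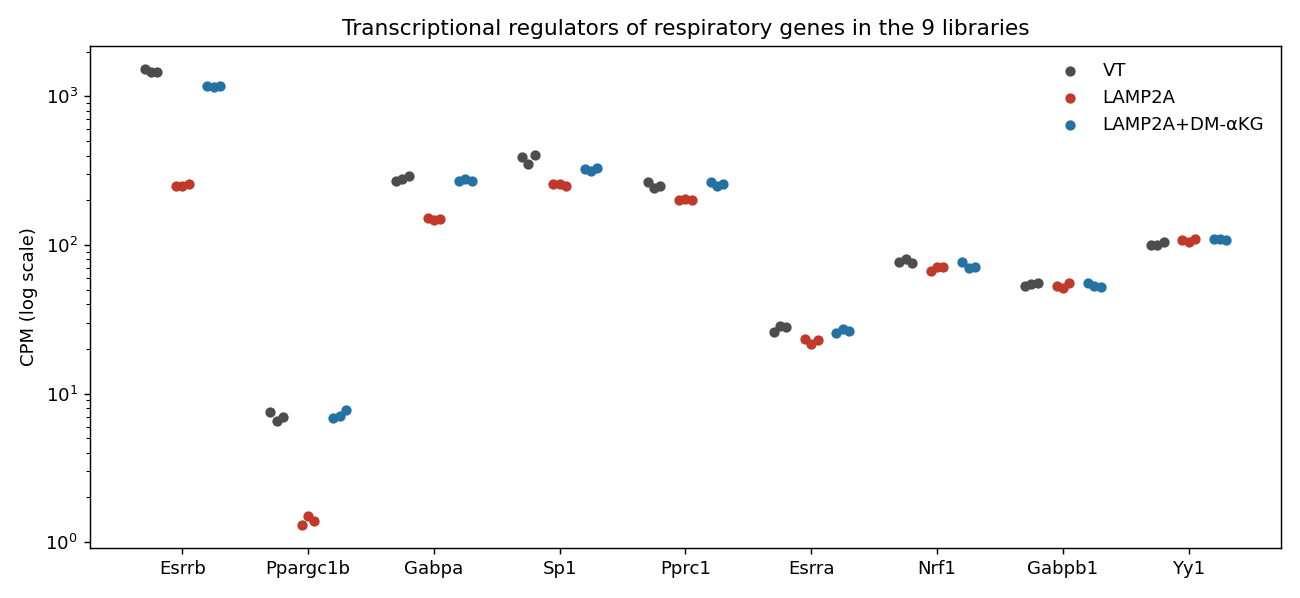
CPM on a log scale (vertical axis) of 9 transcriptional regulators in each library (points, coloured by group). Esrrb, Ppargc1b and Gabpa are lowest in LAMP2A without overlap, while Gabpb1 and Yy1 overlap between VT and LAMP2A.

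Genes of the same pathway outside the symbol rule were counted by list. Beside these counts, 42.1% of all genes tested were lower and 43.0% higher in LAMP2A, and 41.1% were higher and 42.1% lower with DM-αKG. All 4 subunits of complex II were lower in LAMP2A (median -0.46) and all 4 were higher with DM-αKG. Sdhb, its iron-sulphur subunit, was at 142 ± 7.14 CPM in VT, 78.4 ± 1.09 in LAMP2A and 131 ± 0.214 with DM-αKG. Cyc1, the cytochrome c1 of complex III, fell by 0.53 and Cycs, cytochrome c, by 0.77, and both rose with DM-αKG (0.54 and 0.69). Cyct, the testis form of cytochrome c, was at 6.09, 7.28 and 7.92 CPM in VT, 2.83, 2.83 and 2.54 in LAMP2A and 3.15, 2.96 and 2.76 with DM-αKG. It fell and did not pass with DM-αKG against LAMP2A (adjusted p = 0.482 by edgeR), so that it ended at -1.27 against VT.

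Of 11 complex I assembly factors without an Ndufaf symbol, 8 were lower in LAMP2A. With DM-αKG 5 were higher (45.5%, near the 41.1% of all genes), Tmem70 and Lyrm2 were lower and 4 did not pass, with a median of 0.05. Foxred1 and Ecsit fell by 1.05 each, while Lyrm2 (0.53) and Tmem70 (0.35) rose. Of 6 complex III factors, Bcs1l and Uqcc3 were lower, Uqcc2 was higher and 3 did not pass. Their median was -0.02, while all 8 Uqcr genes of the complex fell. Of 22 tested complex IV factors, 16 were lower (median -0.38), with Lrpprc, which stabilises mitochondrial mRNA, at -0.62, and Sco2 and Surf1 were higher. All 4 genes listed for ATP synthase assembly and inhibition were lower in LAMP2A. With DM-αKG 3 of them were higher and Atpif1 was lower. That list did not hold Tmem70, which was counted with the complex I factors above. Of 13 genes of coenzyme Q synthesis, 11 were lower (median -0.35) and 11 were higher with DM-αKG, and Coq3, a methyltransferase, was at -1.03 and 1.05. Coq2 was the one that rose in LAMP2A.

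Of 10 genes that keep and transcribe mitochondrial DNA, 9 were lower in LAMP2A (median -0.28), and none by 1.5-fold. Tfam, the packaging factor of mitochondrial DNA, was among them at -0.32 and is named though outside the naming rule. Polg, the mitochondrial DNA polymerase, was the exception: it stood at 108, 106 and 103 CPM in VT, 261, 261 and 255 in LAMP2A and 126, 123 and 128 with DM-αKG (1.30 ± 0.031 and -1.04 ± 0.03). Of 12 outer membrane, import and prohibitin genes, 9 were lower (median -0.35) and Timm50 was higher. Of 9 supercomplex and cristae genes, 7 were lower (median -0.545), and 8 were higher with DM-αKG. Higd1a, chosen after its values were seen, was at 48.0, 56.0 and 49.3 CPM in VT, 34.8, 34.7 and 32.5 in LAMP2A and 78.9, 83.5 and 78.3 with DM-αKG, above VT by 0.65 ± 0.045 on the log2 scale.

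Many of the genes lie close to another gene. In the annotation 19 of the 85 start head to head with a protein-coding gene within 1000 bases, 20 have an exon that overlaps one of another protein-coding gene, and 9 have over 50% of their transcript at 95% identity in another locus. Leaving out those with a copy or an overlapping exon, 54 of 57 tested genes were lower in LAMP2A (median -0.57) and 54 were higher with DM-αKG (median 0.515). Head-to-head partners did not always move with the gene. Next to Ndufa4, which fell by 0.49, Phf14 was at 0.41, and next to Uqcrh, Lrrc41 was at 0.91, while Ercc8, next to Ndufaf2, was at -1.22.

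In the authors' deposited table of LAMP2A against VT, 73 of 84 listed genes of the set were lower and 2 higher at an adjusted p under 0.05, with a median log2 fold change of -0.57. In the authors' deposited table of LAMP2A+DM-αKG against LAMP2A, 75 of 85 were higher and 3 lower, with a median of 0.50. Every gene called in both the deposited table and the fit made here, 75 and 77 genes, had the same sign.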

How the data were processed

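The authors deposited raw counts per gene symbol for 9 libraries, 3 per group. Per the submitters' processing notes, mm10, STAR 2.7.1, HTSeq 0.11.2 and DESeq2 were used. Neither the gene annotation nor whether strand was counted is given in the sources used here, so overlapping genes, antisense genes and near-identical copies are less certain. Per the file headers, the authors' deposited comparison tables hold a mean signal, log2 fold changes, a test score, and p-values with their adjusted form; only log2 fold changes and adjusted p-values were used.

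Counts of all 24421 genes were filtered with filterByExpr and fitted with edgeR 4.0.16 in R 4.3.3 (TMM, factors from 0.989 to 1.01; estimateDisp; glmQLFit robust; glmQLFTest), as one design with a mean per group and 6 residual df. Benjamini-Hochberg adjustment ran over the 14513 genes tested, with a threshold of 0.05. The biological coefficient of variation (common value) was 2.74%, so small changes passed, and counts at 1.5-fold are given too. CPM use TMM-scaled library sizes. The SE is the absolute log2 fold change divided by the root of the F statistic. The deepest library held 32809875 counts and the shallowest 23636074. Replicates differed by more than sampling noise (1.19 to 5.66 chi-square units per df), and none were merged. The VT libraries differed most, at 2.97 to 5.66 between pairs. The median coefficient of variation of the tested members was 5.3% in VT, 2.4% in LAMP2A and 2.1% with DM-αKG. A spread pooled over the groups can thus be too small for comparisons with VT. The fit was tested on simulated data with 200 changed genes for LAMP2A against VT (14324 genes). It recovered 69.4% of 1.25-fold, 92.0% of 1.5-fold and 98.0% of 2-fold rises and 93.9% of falls to 0.5-fold, with 8 false calls. All other genes were equal between the groups, and every gene was given the same spread. In the data 6239 genes were higher and 6115 lower in LAMP2A, so the simulation cannot give the number of false calls here.

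Positions and transcripts come from GENCODE M21 (GRCm38), copies from blastn 2.17.0, and promoters from RefSeq. The start of the RefSeq promoters was checked: for 46 of 71 the first 30 transcribed bases lie in the GENCODE transcript. Named genes are, per class and comparison, the 3 highest and 3 lowest log2 fold changes that passed at a mean of at least 5 CPM, all isoforms, the genes removed by the filter, and the 3 genes of each other list with the smallest p in LAMP2A against VT. Genes outside that rule are named where they make up a count of 5 or fewer, overlap or adjoin a member, or carry a searched motif's factor. 1 member is counted in the totals and is not reported by name here. The members and lists were chosen with earlier results of these data known. Of the listed genes, Tafazzin was matched as Taz, and Fmc1, Coq8a, Coq8b and Twnk through older symbols. Isoform ratios were compared with exact two-sided permutation tests. Alternatives were DESeq2 1.42.0, voom in limma 3.58.1, other scalings and filters, fits of the 2 groups compared, a replicate block, and each library left out.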

Additional observations from a re-analysis of the deposited data

How the results depend on the processing

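Over other scalings, filters and tools, 73 to 75 members were lower in LAMP2A than in VT and 2 to 4 higher (75 and 3 in the results), and 30 to 41 were lower by 1.5-fold. With DM-αKG against LAMP2A 70 to 76 were higher, 25 to 31 by 1.5-fold, and 3 lower. Against VT 12 to 16 were higher and 25 to 30 lower, and filtering on a 5 CPM mean removed Cox4i2, the 1 gene higher by 1.5-fold, leaving 0. Leaving out each library in turn gave 73 to 75 lower and 1 to 4 higher in LAMP2A, where the 1 came without VT replicate 3, when Cox4i1 and Cox4i2 did not pass. It gave 32 to 39 lower by 1.5-fold, 72 to 76 and 28 to 31 higher with DM-αKG, and 11 to 19 higher and 21 to 34 lower against VT. With a replicate block the counts were 74 lower and 3 higher, 75 higher and 3 lower, and 15 higher and 29 lower in the 3 comparisons. No pairing of libraries by number was seen: deviations of same-numbered libraries correlated at -0.137 to 0.144 over 10706 genes, and those of different-numbered libraries at -0.208 to 0.199. The best match was at the library's own number in 5 of 18 cases. With 3 libraries per group, these values cannot exclude a pairing. Of 3399 recomputed values of named genes, 3287 kept their call, 97 lost it, 15 gained it and 0 passed in the opposite direction. Changes of sign among values that did not pass were not counted. Apart from the changes stated beside the genes, the cause was not tested. Over all settings the median of all genes stayed between -0.0197 and 0.0314 on the log2 scale. Cox6a2, Cox7b2 and Cox8c had too few counts to pass the filter.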
